A study of Mus musculus with 6 samples.

Results

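Hepatic stellate cells isolated warm (37 degrees) were set against stellate cells isolated cold (6 degrees), pair by pair, in 3 kinds of liver tissue. All 6 libraries of the series belong to this comparison: 3 of 37 degrees and 3 of 6 degrees, with 1 library for each source and temperature. The sources were livers of mice on a normal diet, the non-tumour region of livers of mice on a high-fat diet, and the tumour region of such livers. All mice were wild type C57BL/6 animals aged 35 weeks, and no group carried a genetic change or a drug. Livers were perfused, the CD31-/CD45.2-/CD49a+ fraction was sorted, and total RNA was taken with Trizol, and per the labels the members of a pair differed in the temperature of the isolation. The labels do not say how long cells were held at either temperature, nor whether separate animals or pools stand behind the libraries, so p-values measure only the spread of these 6 libraries, which may be technical. The 37 stellate marker genes were all above 0 in each library and summed to between 37139 and 59275 FPKM, and genes of other cell types were present too, as given below. The members described here are the genes that moved the same way in all 3 pairs and lie outside 14 lists of cell type markers and a list of heat shock and chaperone genes.

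Stellate cells are the pericytes of the liver sinusoid. They store vitamin A as retinyl esters, wrap the sinusoid with contractile processes, and become matrix-secreting myofibroblasts when the liver is injured. Enzymatic release of cells from tissue at body temperature gives living cells time to transcribe and to degrade messages, which cold slows, and short-lived messages of transcription factors, secreted signals and feedback inhibitors are the ones that can change within such a period.

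Levels are given as the authors' deposited FPKM, which count fragments relative to transcript length and to the fragments mapped. Differences are of log2(FPKM + 1), 37 minus 6 degrees, so 1 is close to a doubling at high levels and understates the change of genes with low levels. A gene passed when its adjusted p was under 0.05 in limma with liver source as a block, over the 11562 genes whose mean reached 1 FPKM. Depth was estimated at 1.65e+07 to 2.3e+07 fragments per library, which makes 1 fragment on a transcript of 1 kb worth 0.0435 to 0.0608 FPKM. The 3 warm libraries held 1.65e+07 to 1.9e+07 fragments and the 3 cold ones 1.93e+07 to 2.3e+07.

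Warm isolation left 59 genes higher (0.510% of those tested) and 534 lower (4.62%). Of these, 46 higher and 367 lower genes were outside the marker and heat shock lists. The 46 rose by a median of 0.59 (range 0.36 to 1.88) and the 367 fell by a median difference of -1.27 (range -3.32 to -0.36), against a median of 0.01 over all genes tested. Direction alone was common: 2707 genes (23.4%) were higher and 2525 genes (21.8%) lower in all 3 pairs. A difference of log2(FPKM + 1) of at least 1 in every pair was reached by 3 genes upward (0.0259%). Such a difference is 2-fold in FPKM + 1, which is what 2-fold means below. Of the 3 genes, Hspa1a and Hspa1b are heat shock genes and Kcne4 is not. Downward it was reached by 283 genes (2.45%), of which 161 were outside the lists. These counts rest on the pairing and on the filter. Without the source term in limma no gene passed in either direction, with 424 higher and 814 lower by unadjusted p below 0.05. With no filter on low values, over 18434 genes, none passed either, with 1019 higher and 1819 lower by unadjusted p, and Kcne4 then had an adjusted p of 0.0589.

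The members were found in libraries whose cell make-up moved with temperature. On the endothelial list 82 of 133 tested genes passed as lower at 37 degrees and none as higher, and on the macrophage list 79 of 137 passed as lower and none as higher. The macrophage list summed to between 2240 and 6092 FPKM in the warm libraries and to between 3496 and 10728 FPKM in the cold ones, with 1 to 19 of its 163 genes at 0 in a warm library and 0 to 3 in a cold one. The endothelial list summed to between 14704 and 22478 FPKM warm and between 17323 and 28165 FPKM cold, and 0 or 1 of its 142 genes was at 0 in a library. That sum includes Igfbp7, which alone held 4830 to 7569 FPKM warm and 4566 to 5989 FPKM cold. The sort gene Pecam1, which encodes CD31, was at 0.900, 9.99 and 10.7 FPKM in the warm libraries from normal diet livers, the non-tumour region and the tumour region, the order used for all values below, and at 31.4, 90.6 and 53.04 FPKM in the cold ones. On the stellate list 8 of 37 genes passed as higher, 34 were higher in all 3 pairs, and the median difference was 0.39, with pair medians of 0.24, 0.52 and 0.40. In bulk samples fewer cells of a type and less RNA per cell cannot be told apart. The part of these marker shifts in the members' differences was not tested. When each library was rescaled on its stellate marker genes, an alternative added after seeing the data, the median of all genes moved from 0.01 to -0.33. The split outside the lists then went from 46 higher and 367 lower to 30 higher and 4254 lower, so 0.700% rather than 11.1% of the calls were higher.

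**Figure D1:**
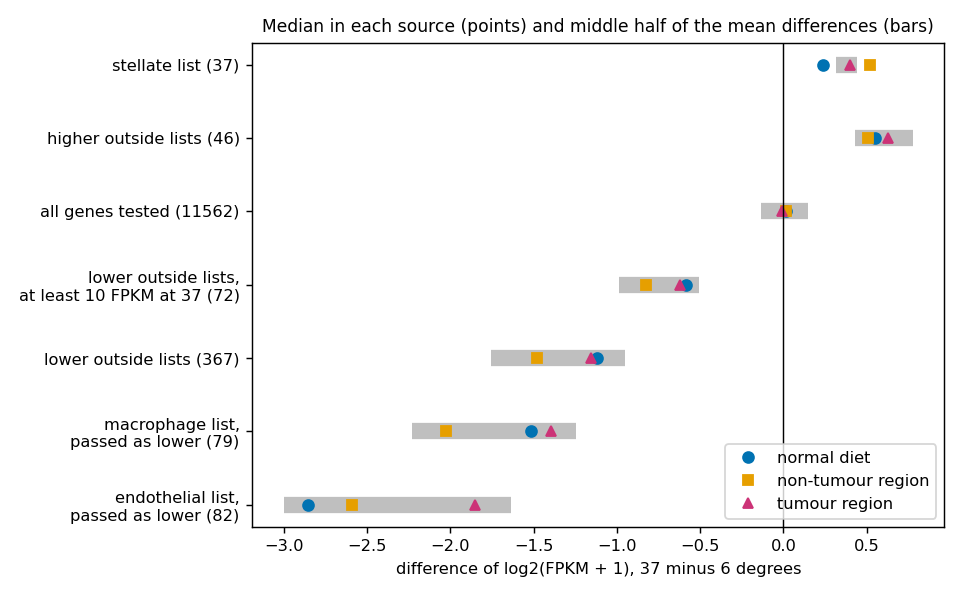
Differences of log2(FPKM + 1), 37 minus 6 degrees, for 7 sets of genes. Points are the set's median in each source, and grey bars span the middle part (lower to upper quartile) of the mean differences. The 46 higher genes outside the lists sit above the stellate list in the normal diet and tumour pairs, and the lower genes lie between the stellate list and the endothelial and macrophage genes that passed.

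The promoters of the 46 higher genes were searched for a set of short motifs. RefSeq promoter entries (GRCm38.p6) matched 30 of the 46 genes, 273 of the 367 lower genes and 8829 of all 11562 tested, and the 250 bases before the RefSeq start were searched on both strands. The clock E-box CACGTG, the letters read by CLOCK and BMAL1 and by MYC, was in 4 of 30 higher genes (13.3%) against 8.46% of all promoters. Those genes were Kcne4, Ntf3, Sema6d and Tmem108. The Kcne4 site ends 48 bases before the RefSeq start but lies inside the gene as GENCODE vM21 places it, so it is not printed. Below are the other 3 sites with the E-box in capitals and the flanks in lower case. Each is written 5′ to 3′ on the strand of its gene.
Ntf3, chr6:126166945-126166994, minus strand: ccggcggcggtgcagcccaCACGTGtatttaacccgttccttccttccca
Sema6d, chr2:124089921-124089968, plus strand: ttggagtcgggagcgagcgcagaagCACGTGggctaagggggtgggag
Tmem108, chr9:103761923-103761978, minus strand: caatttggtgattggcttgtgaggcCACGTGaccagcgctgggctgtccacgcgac
The E-box ends 17 bases before the RefSeq start of Sema6d, 110 before that of Tmem108 and 225 before that of Ntf3. The core promoter box TATAAA was also in 4 of 30 higher genes (13.3%), 1110038B12Rik, Inhba, Nap1l5 and Rgs4, against 6.10% of all promoters. In 2 of them it lay near the start site, and these windows show the box in capitals.
Rgs4, chr1:169747643-169747698, minus strand: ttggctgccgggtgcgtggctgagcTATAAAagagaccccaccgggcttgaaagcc
1110038B12Rik, chr17:34952472-34952524, minus strand: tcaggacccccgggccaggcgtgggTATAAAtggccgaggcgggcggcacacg
The box ends 25 bases before the start of Rgs4 and 22 before that of 1110038B12Rik. The heat shock element GAANNTTC was in 1 of 30 higher genes (3.33%) and in 5.03% of all promoters, and its longer form with a further GAA unit was in 0 of the 30 and in 0.306% of all. The AP-1 letters TGANTCA were in 3.33% of the higher, 7.69% of the lower and 4.17% of all promoters. The CCAAT box was in 7 of 30 higher genes (23.3%), in 35.5% of the lower and in 36.6% of all. The C/EBP letters TTNCGNAA were in 0 of the 30 and in 3.32% of all, and the NF-kB letters in 0 and 1.19%. The RBPJ letters TGGGAA were in 7 of the 30 (23.3%) and in 20.4% of all. The cAMP response element and the D-box were each in 1 of the 30 (3.33%), and in 2.82% and 1.21% of all. With 30 promoters, each gene adds about 3.33 percentage points, and these shares are descriptions of letters in a window.

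The gene with the largest mean rise of the 46 encodes a transcription factor. Bhlhe40, a repressor of clock and metabolic genes, stood at 159, 91.9 and 303 FPKM in the warm libraries and at 31.2, 52.2 and 52.1 FPKM in the cold ones. Every warm library was above every cold one. The mean difference was 1.88 ± 0.34 (SE, limma adjusted p = 0.0438). It was 2.31 and 2.52 in the normal diet and tumour pairs but 0.80 in the non-tumour pair. Bhlhe40 did not pass in limma with 0.1 in place of 1 added to FPKM (adjusted p = 0.0544). With a filter of 5 FPKM it did not pass either (adjusted p = 0.0586). Here and below, SE is the moderated SE of limma, which draws on the variance of other genes. For genes uneven over the sources it can be smaller than the spread of the 3 pairs. The gene lies at chr6:108660629-108666925 on the plus strand (GRCm38, GENCODE vM21), as do the positions below.

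Cebpb and Cebpd encode C/EBP beta and delta, factors that switch on acute phase and adipogenic genes. Cebpb (chr2:167688915-167690418) was at 355, 369 and 623 FPKM warm and 123, 225 and 230 FPKM cold, a difference of 1.22 ± 0.17 (SE, limma adjusted p = 0.0212). Cebpd (chr16:15887286-15891031) was at 255, 295 and 647 FPKM warm and 81.2, 197 and 169 FPKM cold, a difference of 1.38 ± 0.26 (SE, adjusted p = 0.0488). For both genes the warm and cold libraries did not overlap, and the non-tumour pair had the smallest difference (0.71 for Cebpb and 0.58 for Cebpd). They were the 2 of 6 tested C/EBP family genes that passed, beside 0.510% of all genes tested that passed as higher.

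Hes1 encodes a short-lived repressor downstream of Notch and of other signals. It was at 266, 105 and 123 FPKM warm and at 114, 60.7 and 53.3 FPKM cold, so the non-tumour warm library lay below the normal diet cold one while each warm library was above its own partner. The difference was 1.06 ± 0.11 (SE, limma adjusted p = 0.0114), with pair differences of 1.22, 0.78 and 1.19. Hes1 (chr16:30064384-30067796) and Kcne4 were the 2 of the 46 that passed with any single pair left out.

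The other nuclear genes moved less. Foxf1, a mesenchymal factor of the forkhead family, rose by 0.50 and Tbx20, a T-box factor of heart and mesenchyme, by 0.55. Clk4, a kinase that phosphorylates splicing factors of the SR family, was at 27.4, 27.3 and 29.2 FPKM warm and at 18.3, 19.3 and 19.5 FPKM cold. Its pair differences of 0.56, 0.48 and 0.56 were close to one another. Rrs1, needed for assembly of the large ribosomal subunit, rose by 0.50, and Nap1l5, of the nucleosome assembly protein family, by 0.75.

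Malat1, a long non-coding RNA kept in the nucleus, was at 448, 407 and 295 FPKM warm and at 163, 188 and 180 FPKM cold. The warm libraries lay above all cold ones by 1.09 ± 0.15 (SE, limma adjusted p = 0.0197). Unlike the C/EBP genes it had its smallest difference in the tumour pair (0.71, against 1.45 in normal diet and 1.11 in the non-tumour pair). The gene is at chr19:5795690-5802672 on the minus strand.

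**Figure D2:**
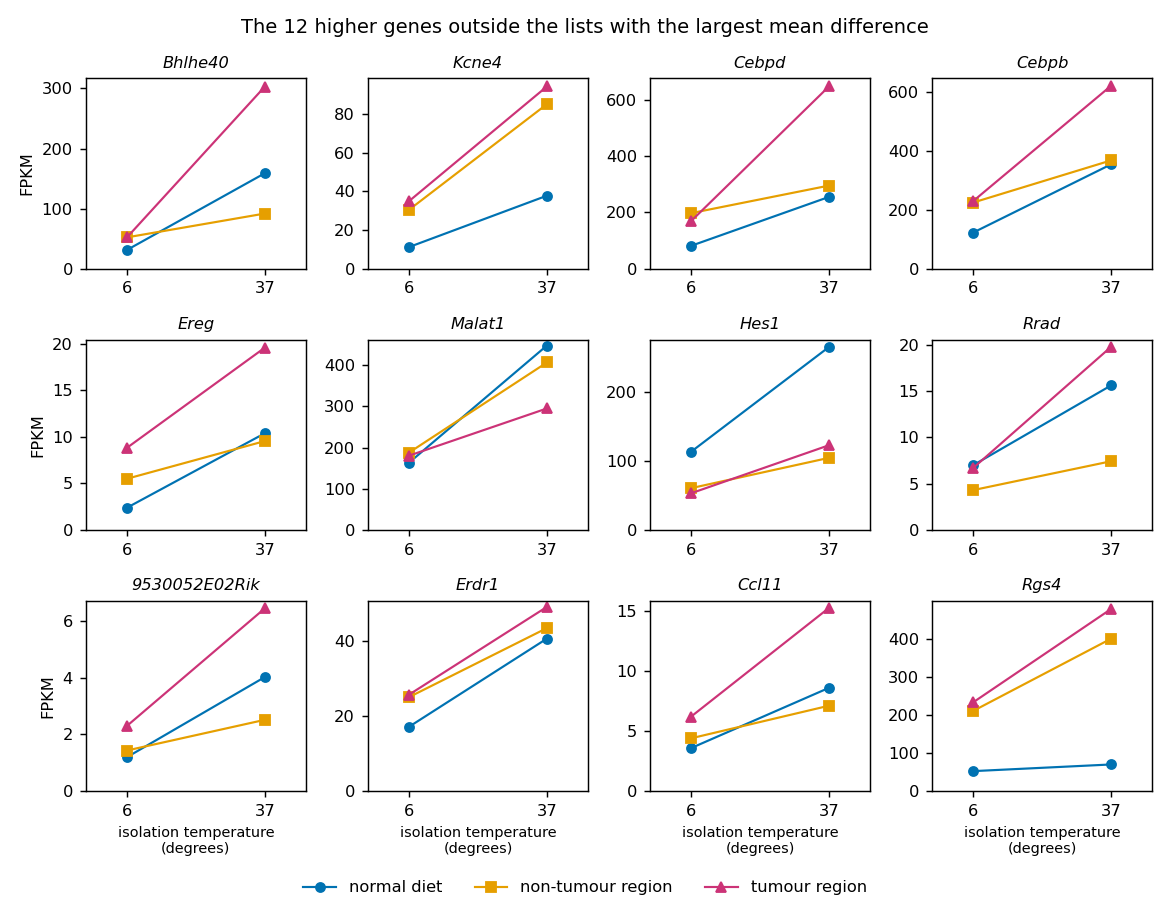
FPKM at 6 and 37 degrees (x axis) of the 12 higher genes outside the lists with the largest mean difference, with lines joining the libraries of a source and y axes from 0. Every line rises, from 31.2 to 159 FPKM for Bhlhe40 in normal diet, for example, and the non-tumour line is the flattest for Bhlhe40, Cebpd, Cebpb and Ereg but not for Kcne4 or Malat1.

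Kcne4, a single-span subunit that inhibits voltage-gated potassium channels, had the smallest adjusted p of the 46. It was at 37.8, 85.2 and 94.4 FPKM warm and at 11.2, 30.5 and 35.0 FPKM cold, with every warm library above every cold one. The difference was 1.51 ± 0.09 (SE, limma adjusted p = 0.00713), with pair differences of 1.67, 1.45 and 1.41. The gene is at chr1:78816758-78820028 on the plus strand.

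Rrad, a GTPase of the RGK family that holds back voltage-gated calcium channels, was at 15.6, 7.42 and 19.8 FPKM warm and 6.99, 4.30 and 6.69 FPKM cold. It rose by 1.05 ± 0.16 (SE, limma adjusted p = 0.0292), with no overlap between warm and cold libraries. Rgs4, which ends signalling by G protein alpha subunits, was at 70.2, 400.2 and 478 FPKM warm and at 52.7, 211 and 233 FPKM cold. Its pair differences of 0.41, 0.92 and 1.03 sat on a larger gap between normal diet and high-fat livers at both temperatures.

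Smaller differences were found for receptors, signalling proteins and an enzyme subunit. Adm, which encodes the vasodilator adrenomedullin, rose by 0.47, Gucy1b3, a subunit of the nitric oxide receptor guanylate cyclase, by 0.43, and Gcgr, the glucagon receptor, by 0.42. Myadm, a membrane protein of lipid rafts, rose by 0.43. Cox4i2, the oxygen-responsive isoform of cytochrome oxidase subunit 4, rose by 0.61, from 3.98, 12.6 and 16.7 FPKM cold to 5.62, 21.6 and 27.5 FPKM warm.

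Secreted signals formed another group. Ereg, the EGF receptor ligand epiregulin, was at 10.4, 9.55 and 19.6 FPKM warm and 2.39, 5.50 and 8.82 FPKM cold, a difference of 1.17 ± 0.21 (SE, limma adjusted p = 0.0441). Among chemokines, Ccl11 (eotaxin) was at 8.60, 7.12 and 15.3 FPKM warm and 3.59, 4.40 and 6.21 FPKM cold, and Cxcl14 at 77.3, 72.8 and 92.4 FPKM warm and 48.1, 49.0 and 58.0 FPKM cold. Warm and cold libraries did not overlap for these 3 genes. Ccl11 rose by 0.94 and Cxcl14 by 0.63, and the pair differences of Cxcl14 were 0.67, 0.56 and 0.66.

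Of the growth factors, Inhba, whose product forms activin A, was at 16.2, 19.6 and 20.8 FPKM warm and 10.4, 10.5 and 13.98 FPKM cold (difference 0.66 ± 0.10 SE, limma adjusted p = 0.0275). It had its largest difference in the non-tumour pair (0.84). Ntf3, the neurotrophin NT-3, rose by 0.57 and Gdf10, of the TGF-beta superfamily, by 0.48. Wnt4, a Wnt ligand, rose by 0.41 and Frzb, a secreted Wnt antagonist, by 0.42. Sema6d, a semaphorin, rose by 0.56.

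Proteolysis and matrix genes were also among the secreted members. Plat, the tissue plasminogen activator, was at 56.9, 72.8 and 113 FPKM warm and 30.6, 51.3 and 76.4 FPKM cold, a difference of 0.64. Timp1, the inhibitor of metalloproteinases induced in activated stellate cells, rose by 0.42 with pair differences of 0.40, 0.39 and 0.45. Lum, the matrix proteoglycan lumican, was the most abundant of the 46 at 923, 657 and 655 FPKM warm and 717, 514 and 504 FPKM cold. Its pair differences of 0.37, 0.35 and 0.38 were nearly equal, and its mean of 0.36 became -0.02 on the stellate rescaling. Cp, the copper oxidase ceruloplasmin, rose by 0.39.

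The remaining higher members were membrane proteins, enzymes and RNAs of less certain function. Spry1, a feedback inhibitor of receptor tyrosine kinase signalling, was at 415, 348 and 414 FPKM warm and at 235, 235 and 249 FPKM cold, without overlap. It rose by 0.71 ± 0.08 (SE, limma adjusted p = 0.0128). Sdc4, a heparan sulfate proteoglycan of focal adhesions, rose by 0.64, Alpl, tissue-nonspecific alkaline phosphatase, by 0.68, Fam46a, a poly(A) polymerase, by 0.65, and Nnmt, which methylates nicotinamide, by 0.47. Cd200r1 rose by 0.51, Tmem108 by 0.64, Abhd11 by 0.44 and Ahnak by 0.42. Tnfrsf21, the death receptor DR6, rose by 0.38 and Pmp22, the peripheral myelin protein, by 0.36, and these means became -0.004 and -0.02 on the stellate rescaling.

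Erdr1 was at 40.6, 43.4 and 49.0 FPKM warm and 17.1, 24.99 and 25.6 FPKM cold, a difference of 0.96 ± 0.11 (SE, limma adjusted p = 0.0123). Its warm and cold libraries did not overlap. A pair of non-coding RNAs lay beside inducible genes, and the use of strand in counting is not stated. 1110038B12Rik (chr17:34950238-34952471) rose by 0.67. Its start lies 3965 bases from Hspa1b, a gene on the same strand that rose by 4.22. 9530052E02Rik (chr8:11007850-11054541) rose by 0.97 and overlaps Irs2 on the other strand, an insulin receptor substrate with a difference of 1.25 (limma adjusted p = 0.0771). Overlapping genes on the other strand were also found for Abhd11, Cebpb, Cebpd, Cp and Nap1l5, with differences between -0.31 (Herc3, beside Nap1l5) and 0.35 (Spidr, beside Cebpd), none passing.

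The 46 higher genes differed in how even they were over the sources. The largest pair difference was at most 1.5 times the smallest in 21 genes, over 1.5 but under 3 times in 23 and at least 3 times in 2, Bhlhe40 and Cebpd. The largest difference was in the normal diet pair for 19 genes, in the tumour pair for 18 and in the non-tumour pair for 9. Over all 11562 genes tested these counts, for differences of either sign, were 3101, 4304 and 4157. The stellate list had its largest difference in the non-tumour pair for 26 of 37 genes. Whether the temperature effect differs between sources was not tested, since each combination has 1 library. In 26 of the 46 all warm libraries were above all cold ones, which held for 960 of all genes tested (8.30%).

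In 21 of the 46, the difference exceeded the median of the stellate list in each of the 3 pairs, as it did in 82 of the 11562 genes tested. The 46 were chosen by their rise in these same libraries, which favours this count and the count without overlap above. Those 21 were Bhlhe40, Kcne4, Cebpd, Cebpb, Ereg, Malat1, Hes1, Rrad, 9530052E02Rik, Erdr1, Ccl11, Rgs4, Nap1l5, Spry1, Inhba, Fam46a, Tmem108, Cxcl14, Cox4i2, Sema6d and Foxf1. On the stellate rescaling 13 of the 46 still passed. Kcne4 was then at 1.13 ± 0.11 (SE, limma adjusted p = 0.00359), Bhlhe40 at 1.496, Cebpd at 0.996, Cebpb at 0.83, Ereg at 0.83, Rrad at 0.71, Malat1 at 0.70, 9530052E02Rik at 0.69, Hes1 at 0.68, Ccl11 at 0.61, Erdr1 at 0.58, Rgs4 at 0.40 and Nap1l5 at 0.39.

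The calls on single higher genes depended on each pair. Leaving out the normal diet pair kept 8 of the 46, leaving out the tumour pair kept 7 and leaving out the non-tumour pair kept 5 (Bhlhe40, Cebpb, Cebpd, Hes1 and Kcne4). Without the non-tumour pair 31 genes outside the lists passed as higher, 26 of which were not among the 46. The lower pseudocount of 0.1 FPKM kept 29 of the 46, the stricter filter of 5 FPKM kept 29, and the fit without the intensity trend kept 15.

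**Figure D3:**
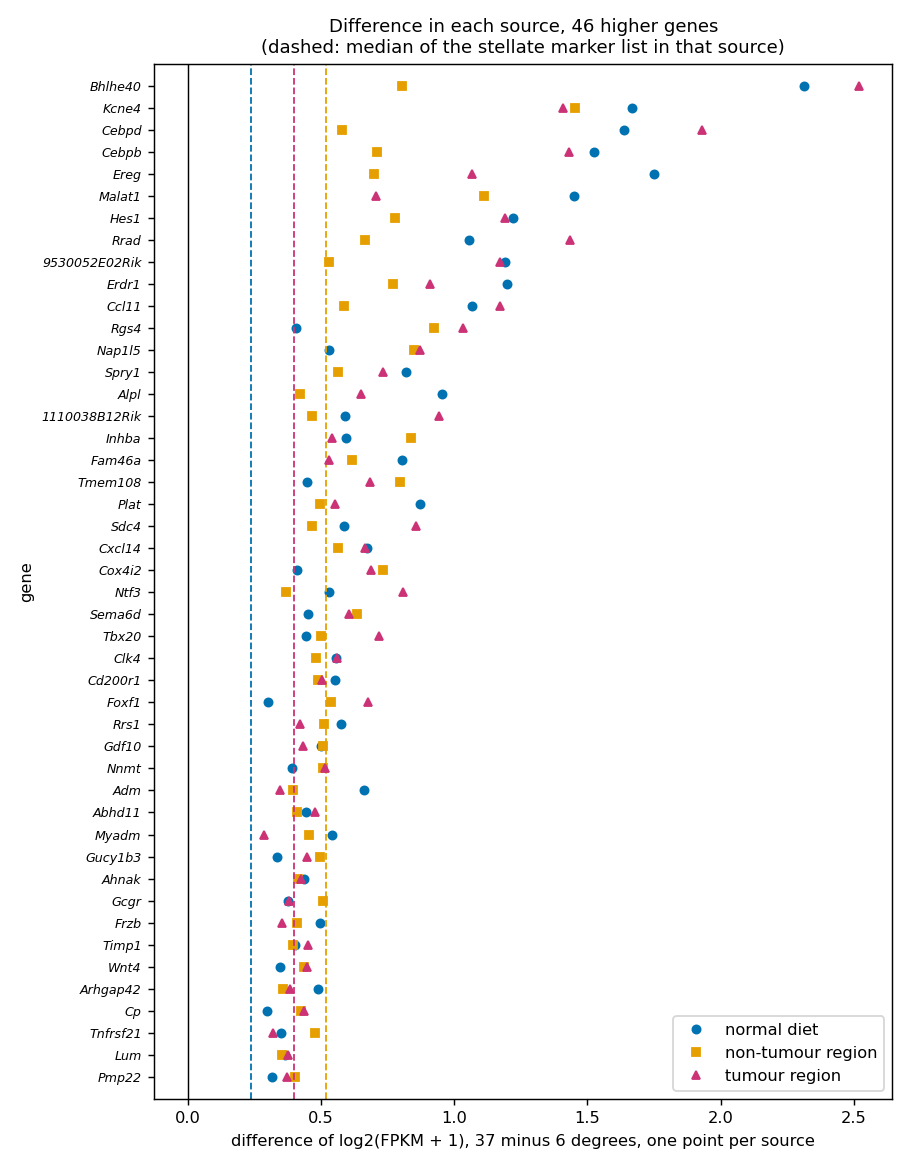
Pair differences of log2(FPKM + 1), 37 minus 6 degrees, for the 46 higher genes outside the lists, ordered by mean difference, with dashed lines at the stellate list median of each source (0.24, 0.52 and 0.40). All points are above 0, and the spread between sources is widest for Bhlhe40, Cebpd and Ereg and narrow for Cxcl14, Clk4 and Lum.

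The lower members outside the lists were more numerous and had lower levels. The 367 genes had pair medians of -1.12, -1.48 and -1.15. Of them 267 had all warm libraries below all cold ones, which held for 1087 of all genes tested (9.40%). The 367 were chosen by their drop in these same libraries, which favours that count. The largest drop was in the non-tumour pair for 238 genes, in normal diet for 72 and in the tumour pair for 57. Among macrophage genes that passed it was in the non-tumour pair for 62 of 79. Among endothelial genes that passed it was in the normal diet pair for 48 of 82 and in the non-tumour pair for 34. Over all 11562 genes tested, the largest difference of either sign was in the non-tumour pair for 4157. It was in normal diet for 3101 and in the tumour pair for 4304.

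The largest drops outside the lists were of membrane proteins. The lists do not hold every gene of a cell type, so genes outside them can still come from endothelial cells or macrophages. Pecam1, of the endothelial list, was at 0.900, 9.99 and 10.7 FPKM warm and at 31.4, 90.6 and 53.04 FPKM cold. The part of such cells in the drops described here was not tested. Cd300lg, a mucin-like receptor that binds lymphocytes, was at 1.21, 15.1 and 10.6 FPKM warm and 57.6, 129.9 and 52.5 FPKM cold. Its difference was -3.32 ± 0.46 (SE, limma adjusted p = 0.0211). Cd55, which speeds decay of complement convertases, was at 1.09, 11.3 and 10.5 FPKM warm and 44.0, 101 and 58.4 FPKM cold, a difference of -3.29. Dpp4, the dipeptidyl peptidase CD26, was at 1.296, 10.2 and 7.77 FPKM warm and 39.7, 93.5 and 43.1 FPKM cold, a difference of -3.18. All warm libraries of these 3 genes were below all cold ones, and the drop was largest in the normal diet pair. The 82 endothelial genes that passed had pair medians of -2.85, -2.59 and -1.85, whereas all 133 tested endothelial genes had -1.47, -1.93 and -1.24, with the non-tumour pair largest.

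Others of the 25 largest drops included Gatm, the first enzyme of creatine synthesis (-3.15), the junction protein Jam2 (-2.78), the cannabinoid receptor Cnr2 (-2.66), the sialic acid lyase Npl (-2.65), the ephrin ligand Efna1 (-2.56), the BMP ligand Bmp6 (-2.54) and Srgn, the granule proteoglycan serglycin (-2.58). Ear2, an eosinophil-associated ribonuclease, was at 0.370, 0.470 and 9.17 FPKM warm and 4.30, 14.5 and 60.8 FPKM cold, with its largest drop in the non-tumour pair (-3.40). Fabp4 and Rnaset2a were at least 2-fold lower in every pair without passing. Fabp4, a fatty acid carrier, was at 1.63, 78.4 and 154 FPKM warm and 74.5, 631 and 335 FPKM cold (limma adjusted p = 0.0754). Rnaset2a has a near-identical copy, so the division of its reads is uncertain.

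A total of 72 lower members, set apart after their values were seen, held at least 10 FPKM in each warm library. Their median difference was -0.67 and their largest drop was in the non-tumour pair for 53. That pair held the largest difference of either sign for 4157 of all 11562 genes tested. Sepp1, the plasma selenium carrier selenoprotein P, was at 436, 721 and 690 FPKM warm and 1399, 2689 and 1563 FPKM cold, a difference of -1.59 ± 0.15 (SE, limma adjusted p = 0.0103). Cd59a, which blocks the membrane attack complex, was at 10.9, 19.6 and 21.3 FPKM warm and 43.8, 115 and 64.5 FPKM cold, a difference of -1.99. Cd55, given above, also regulates complement and fell in all 3 sources, as did 21.8% of all genes. The 2 genes were set side by side after their values were seen, and no list of complement genes was tested.

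Some genes of vesicle traffic were among the 72. The genes named here were picked after their values were seen, and no list of traffic genes was tested. The part of endothelial cells and macrophages in their drops was not tested. Ap1b1, an adaptor subunit of clathrin coats at the Golgi, fell to 13.02, 19.2 and 16.7 FPKM from 32.6, 88.5 and 58.0 FPKM, a difference of -1.71. The plasma membrane adaptor subunits Ap2s1 and Ap2a2 had differences of -0.66 and -0.63, the sorting nexins Snx5 and Snx2 -0.84 and -0.74, and the caveolar protein Cav2 -1.03. Cell surface and lysosomal enzymes included the NAD glycohydrolase Cd38 (-1.84), the hyaluronidase Hyal2 (-1.67), the protease Lgmn (-0.45) and the mannosidase Man2b1 (-0.55). Fcgrt, the neonatal Fc receptor, had a difference of -0.63 and Ucp2, a mitochondrial carrier, one of -1.199.

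The drops of a few genes were nearly equal in the 3 sources. Atg101, needed to start autophagosomes, was at 18.03, 18.9 and 21.2 FPKM warm and 26.2, 27.8 and 31.0 FPKM cold, with pair differences of -0.51, -0.54 and -0.53. Hmgn2, a nucleosome-binding protein, had pair differences of -0.37, -0.38 and -0.33, and H1f0, a linker histone, -0.48, -0.41 and -0.39. The long non-coding RNA Bvht had -0.50, -0.52 and -0.47. In these genes the drop in the non-tumour pair was not set apart from the others, unlike in Ap1b1 (-1.26, -2.15 and -1.73) or Cd38 (-1.45, -2.38 and -1.69).

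Without the non-tumour pair 32 of the 367 lower genes passed, and 4 of the 72 (Cd38, Cd59a, Hyal2 and Sh3bp5), whereas leaving out the normal diet pair kept 206 of the 367 and leaving out the tumour pair kept 239.

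Several gene families held members that moved in opposite directions. Of all genes tested, 0.510% passed as higher and 4.62% as lower, and the counts in the lists below are small. In bulk samples the rising and the falling members can come from different cells. The lower members fell beside the endothelial and macrophage genes, and the part of those cells in their drops was not tested. Inhbb, Nrarp, Mfng, Kcnq1 and Fzd6 had warm means below 1 FPKM, so they met the filter through the cold libraries. These genes, Igf1, Acvrl1, Col13a1 and Pdk1 were below the stricter filter of 5 FPKM. With a pseudocount of 0.1 FPKM, the falling Inhbb, Igf1, Kcne3, Fzd6 and Pdk1 did not pass. Neither did the rising Ntf3, Adm, Wnt4 and Lum. Among potassium and calcium channel genes, 2 of 21 tested passed as higher (Kcne4, Rrad) and 2 as lower. Kcne3, a sister of Kcne4 that keeps Kcnq1 channels open, was listed at 0, 3.60 and 2.91 FPKM warm and at 2.05, 16.5 and 11.3 FPKM cold (difference -1.73, limma adjusted p = 0.00862). The channel gene Kcnq1 itself was at 0.0825, 0.661 and 1.10 FPKM warm and 2.45, 7.21 and 5.09 FPKM cold (-1.84). Kcne4 thus rose from a level above Kcne3 in each source while Kcne3 and Kcnq1 fell to a few FPKM or less.

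The 28 secreted growth factors tested split into 4 that passed as higher, Inhba, Ntf3, Gdf10 and Hgf, the last of which is also on the stellate list, and 2 that passed as lower. Inhbb, whose product forms activin B, was at 0.0345, 0.605 and 1.15 FPKM warm and 3.07, 5.77 and 3.22 FPKM cold (-1.67), opposite to Inhba. Igf1 was at 1.99, 0.604 and 4.33 FPKM warm and 3.84, 3.45 and 11.6 FPKM cold (-1.14). On the list of TGF-beta and BMP signalling none of 37 passed as higher and 2 passed as lower, Bmp6 and the receptor Acvrl1, which is near the 4.62% of all genes. In all 3 pairs 20 of the 37 were higher, beside 23.4% of all genes.

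In the Notch list Hes1 was the 1 of 22 genes that passed as higher. Nrarp, a Notch target that dampens the signal, was at 0.276, 0.563 and 1.19 FPKM warm and 3.88, 7.38 and 4.81 FPKM cold (-1.92). Mfng, a glycosyltransferase that modifies Notch receptors, was listed at 0, 0.656 and 0.869 FPKM warm and at 3.11, 7.29 and 7.06 FPKM cold (-2.16). Of 22 chemokines, Ccl11 and Cxcl14 rose and Ccl6, a chemokine of macrophages, fell from 24.1, 28.1 and 77.9 FPKM to 6.01, 10.8 and 36.5 FPKM. In the Wnt list of 17 genes Wnt4 rose and the receptor Fzd6 fell (-1.04), and in the matrix list of 65 genes Lum rose, with the reversal on the stellate rescaling given above, and Col13a1, a transmembrane collagen, fell (-2.09). In the glycolysis and hypoxia list of 36 genes Adm rose and Ldhb (-1.46) and Pdk1 (-0.80) fell.

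**Figure D4:**
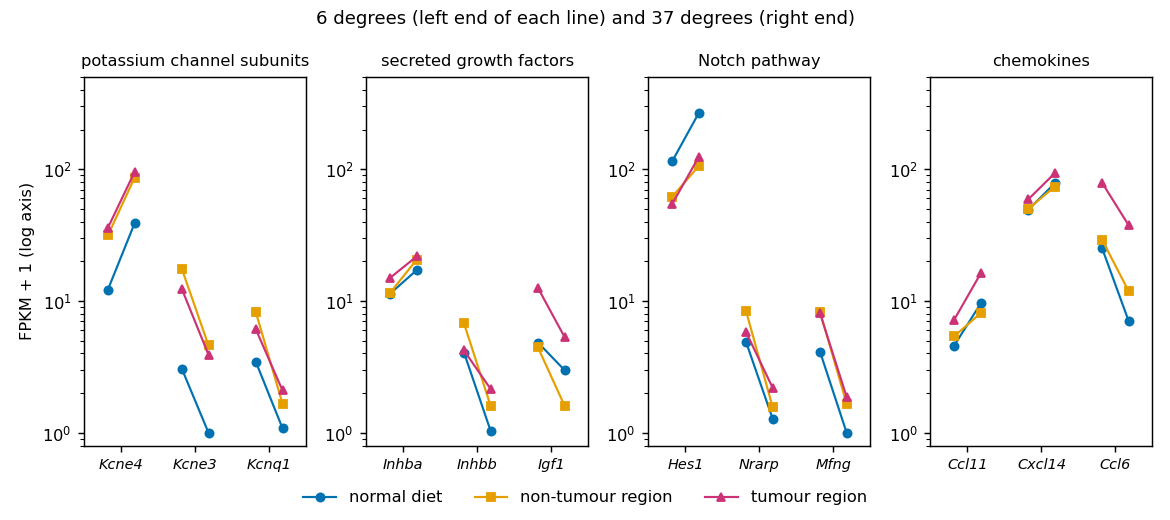
FPKM + 1 on a log axis at 6 degrees (left end of each line) and 37 degrees (right end) for 3 genes in each of 4 lists, with 1 line per source. Kcne4, Inhba, Hes1, Ccl11 and Cxcl14 rise in all 3 sources, and Kcne3, Kcnq1, Inhbb, Igf1, Nrarp, Mfng and Ccl6 fall in all 3. Whether rising and falling genes come from the same cells was not tested.

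Members of other lists passed as lower, beside 4.62% of all genes tested. In the list of IL-6 family and JAK-STAT genes 2 of 31 were lower, a share near that background. Jak1, a kinase of cytokine receptors, was at 115, 151 and 127 FPKM warm and 151, 246 and 173 FPKM cold (difference -0.51, limma adjusted p = 0.0366), and Jak3, its lymphoid relative, fell by 1.23. In the inflammasome list 3 of 14 were lower: Casp8, the apoptosis and inflammation protease (-0.52), Il18bp, a soluble inhibitor of IL-18 (-0.44), and Il1rn, the IL-1 receptor antagonist (-1.07). Others were single genes: Slc39a8, a zinc importer (-2.21), the aldo-keto reductase Akr1b8 (-1.27), Itga6 (-1.11) and the lysosomal protease Ctsh (-2.002). The sterol carrier Stard4 (-1.06) and the p53 target Sesn1 (-0.65) were lower too. Itga6 and Stard4 had warm means below 1 FPKM (0.474 and 0.660). The prostaglandin transporter Slco2a1 (-2.80) passed as lower as well, but it is also on the endothelial marker list and so is not one of the members.

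Lists with no passing member could still lean one way. Immediate early transcription factors had a median of 1.08 over 28 genes, but the pair medians were 1.23, 0.28 and 1.94. Of the 28, 15 were higher in all 3 pairs, beside 23.4% of all genes. Atf3 was at 179, 35.1 and 1285 FPKM warm and 11.2, 23.9 and 32.8 FPKM cold (limma adjusted p = 0.117). The uneven size over the pairs enters the error of the paired test, and Zfp36, which speeds decay of AU-rich messages, had differences of 2.92, 0.67 and 2.99 with an adjusted p of 0.0703. Without the non-tumour pair Atf3 passed at a difference of 4.56 over 2 pairs (limma adjusted p = 0.0472) and Zfp36 at 2.96 (adjusted p = 0.00769). On the stellate rescaling Atf3 passed at 2.84 (adjusted p = 0.0416) and Zfp36 at 1.81 (adjusted p = 0.0327). Fos, Jun, Junb and Jund, subunits of AP-1, also passed in both of these fits.

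Ribosomal protein genes differed little. Of 77, 47 were higher in all 3 pairs and none lower, with a median of 0.11 and none passing. On the stellate rescaling Rps21 and Rplp2 turned to -0.06 and -0.10. Of 44 splicing and cold-inducible RNA-binding genes 23 were higher in all 3 pairs, none was lower in all 3, and Clk4 alone passed. Oxidative phosphorylation genes (69 tested, 17 lower and 8 higher in all 3 pairs) and proteasome genes (34 tested, 9 lower and 4 higher) had medians of -0.02 each and no passing gene. These shares stand beside 23.4% and 21.8% of all genes that were higher or lower in all 3 pairs.

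Part of the cell cycle list was lower in the warm libraries. Of 54 tested, 12 passed as lower and none as higher, beside 4.62% and 0.510% of all genes. In all 3 pairs 37 were lower and none was higher, beside 21.8% and 23.4% of all genes. The median was -0.56 (-0.31, -0.72 and -0.95 in the 3 pairs). Ccnb2, which encodes mitotic cyclin B2, was at 26.0, 2.203 and 3.71 FPKM warm and 44.7, 6.67 and 11.2 FPKM cold (difference -1.13 ± 0.15 SE, limma adjusted p = 0.0188). Cenpa, the centromeric histone, was at 20.6, 6.59 and 11.6 FPKM warm and 39.7, 13.2 and 18.7 FPKM cold (-0.82), with pair differences of -0.91, -0.90 and -0.64. For both genes the normal diet libraries held the highest levels at both temperatures, so warm and cold groups overlapped although each pair fell. The 12 genes moved beside the endothelial and macrophage genes, and the part of those cells in the drop was not tested. Leaving out the normal diet pair kept 10 of the 12, leaving out the tumour pair kept 4 and leaving out the non-tumour pair kept 0.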

How the data were processed

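Expression was measured by RNA sequencing in 6 libraries. The deposited values are FPKM, which the authors made with TopHat2 2.1.1, Bowtie2 and Cuffdiff 2.2.1 on mm10, per the submitters' processing notes. For annotation, strand use and scaling, nothing is given in the sources used here. Entries sharing a symbol were summed (24346 symbols), and 1304 small RNA symbols were left out. Depth was estimated from the step of low FPKM values of genes with 1 transcript. The model was limma 3.58.1 (R 4.3.3) on log2(FPKM + 1) with source as a block, temperature as the term, an intensity trend, and Benjamini-Hochberg adjustment over 11562 genes, and it was tested on simulated data. Pairs come from the source named in the labels. It leaves 2 residual degrees of freedom (5.37 with the prior). Named genes were the 30 largest rises and 25 largest drops outside the lists, up to 4 passing members of each of 39 pathway lists, genes at least 2-fold different in all pairs without passing, and up to 2 members of lists with no passing member. Genes named beyond these (the rest of the 46 higher, those of the 72 lower, Hspa1a, Hspa1b, Irs2, Herc3, Spidr, Igfbp7, Pecam1, Fos, Jun, Junb, Jund) were chosen after their values were seen. Members and lists were chosen with earlier results of these data known. Alternatives changed pseudocount, filter, normalization, trend, block and pairs used.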

Additional observations from a re-analysis of the deposited data

Results flagged for a closer look

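In 3 lists the median difference (37 minus 6 degrees, log2(FPKM + 1)) pointed one way in one source and the other way in another. Each source has 1 pair of libraries, so the difference between sources was not tested. Hepatocyte markers had medians of -2.25 in the normal diet, -0.76 in the non-tumour and 0.26 in the tumour pair over 59 genes, none of which passed in limma, and 10 were lower and 2 higher in all 3 pairs. MAP kinase feedback genes had 0.48, -0.10 and 0.40 over 19 genes, among which Spry1 rose in every pair. Genes of p53 targets and cell-cycle inhibitors had 0.028, -0.17 and 0.12 over 27 genes, among which Sesn1 passed as lower.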

How the results depend on the processing

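Counts are of genes that passed in limma, outside the marker and heat shock lists unless all genes are named. A mean of at least 5 FPKM gave 29 higher and 180 lower (39 and 291 over all genes), with fewer genes tested. No filter gave 0 and 0, also over all genes, with more low genes tested. A pseudocount of 0.1 FPKM gave 29 higher and no intensity trend 16 (21 over all genes); the cause was not tested. The fit with no replicate block, which ignores the pairing by source, gave 0 higher and 0 lower, also over all genes. Rescaling on the stellate marker list gave 30 and 4254 (35 and 4536 over all genes) and turned the direction of Lum (-0.023), Pmp22 (-0.021), Tnfrsf21 (-0.0038), Selk (-0.20), H2-K1 (-0.13), Rps21 (-0.061) and Rplp2 (-0.10), by its construction a common downward shift. Leaving out 1 pair, with 2 pairs left, gave 15 to 31 higher (23 to 35 over all genes) and 34 to 278 lower (50 to 448 over all genes). Quantile normalization and median-ratio rescaling stayed within 1.5 times of these pass counts. Of genes at least 2-fold higher in every pair there were 5 with a pseudocount of 0.1 FPKM, 2 with quantile normalization, 0 on the stellate rescaling and 2 to 52 with 1 pair left out. Of genes at least 2-fold lower there were 262 with that pseudocount, 90 with a mean of at least 5 FPKM and 166 to 248 with 1 pair left out. At least 1.5-fold in every pair was met by 18 genes upward and 334 downward. Below about 1 FPKM a value rests on few fragments and is imprecise.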
